A study of Mus musculus with 12 samples.

Results

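Phase II conjugation enzymes make foreign compounds, hormones and bile acids more soluble in water by joining them to a polar group. The members described here are the genes on the array whose symbols belong to the glutathione S-transferases of the alpha, mu, pi, theta, omega and zeta classes (Gsta, Gstm, Gstp, Gstt, Gsto, Gstz), to the UDP-glycosyltransferases of the Ugt1, Ugt2 and Ugt3 groups, or to the cytosolic sulfotransferases (Sult). They were chosen by symbol alone, from probes annotated with a single gene, with the brightest probe kept for each gene. This gave 48 genes of 22180: 17 glutathione transferases, 10 glucuronosyltransferase-family genes and 21 sulfotransferases, each with 1 probe. The Ugt1a genes, Gsta1, Gsta2, Gstm5 and Gstz1 are represented by probes annotated with several genes and are not among the members. Ugt8a, whose symbol has a letter but no digit after the group number, did not match the symbol pattern and is counted with the other conjugating enzymes further on.

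Glutathione transferases couple the tripeptide glutathione to electrophiles and lipid peroxidation products. UDP-glucuronosyltransferases sit in the endoplasmic reticulum and transfer glucuronic acid from UDP-glucuronate to steroids, bile acids, bilirubin and drugs, and sulfotransferases transfer sulfate from the donor PAPS to phenols, catecholamines, oestrogens and hydroxysteroids. The liver is the main organ of these reactions, and many of the genes are under the control of hepatocyte transcription factors, of the xenobiotic receptors CAR and PXR and of the oxidant sensor NRF2.

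The study measured RNA of whole liver and of 2 white fat depots, epididymal and inguinal, on 12 Affymetrix gene arrays, in 6 groups of 2. Male Mgl2-DTR mice were compared with wild-type males of the C57BL/6N strain and like age, and both genotypes were injected intraperitoneally with diphtheria toxin, 500 ng per dose at intervals of 3 days, with tissues taken on day 10. In Mgl2-DTR mice the toxin depletes the CD301b+ mononuclear phagocytes, cells named for the lectin that Mgl2 encodes. No group without toxin was analysed here, so the genotype comparison holds the toxin constant. The values are log2 signals whose array medians lay between 5.19 and 5.28. The labels number 2 replicates per group without saying more of their origin than that each came from a mouse, so each p-value is set against the scatter of these samples alone, which may be technical, and 2 arrays per group limit the precision.

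Mgl2 itself served as the check of the labels. Its log2 level was 7.46 and 7.22 in wild-type epididymal fat against 4.25 and 4.19 in Mgl2-DTR, a change of -3.12 (SE 0.24, limma adjusted p = 0.00376). In inguinal fat it was 7.07 and 7.36 against 4.12 and 4.72, a change of -2.80 (SE 0.24, limma adjusted p = 0.00199). In liver it lay between 4.03 and 4.59 on all 4 arrays, under the level of 5.71 that served to call a gene measurable. Tissue markers matched the labels: 8 hepatocyte markers averaged 12.07 to 12.21 on the liver arrays and 4.75 to 6.22 on the fat arrays, and 6 adipocyte markers averaged 11.22 to 11.79 on the fat arrays and 5.47 to 5.81 on the liver arrays. Among the fat arrays the hepatocyte markers were highest on epididymal wild-type replicate 2, at 6.22, with 5 of 8 above 5.71. The other epididymal arrays were at 4.75 to 4.98, each with 1 of 8 above it, and the inguinal arrays at 5.32 to 5.85. Epididymal wild-type replicate 2 also had 3 of 4 Kupffer cell markers above 5.71, against at most 1 on any other fat array. Epididymal Mgl2-DTR replicate 2 stood apart, with 5 epididymal duct markers averaging 10.73 against 3.81 to 4.20 on the other 11 arrays. Epididymal wild-type replicate 1 was the lowest of the 4 epididymal arrays for 36.8% of the 11391 genes above 5.71 in that fat. Skeletal muscle markers averaged 9.74 in inguinal wild-type replicate 2 and 9.24 in inguinal Mgl2-DTR replicate 1, against 6.55 and 6.39 on the other 2 inguinal arrays.

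Promoter windows of 250 bases before to 50 bases after the annotated start were found in RefSeq (mouse build GRCm38.p6) for 41 of the 48 members. Those of 7 genes are shown. Ugt2b1, Sult2a8 and Gstm3 are the members of each family that were measurable in liver alone and had the largest wild-type difference from fat; Sult2a8 has 2 annotated starts. Sult1e1 was measurable in fat alone, Sult1d1 is its neighbour and was measurable in liver alone, and Gstp1 and Gstp2 are the neighbouring pi class pair with the lowest unadjusted p among the glutathione transferases in the liver genotype comparison. Each is written 5′ to 3′ on the strand of its gene. Capitals mark matches, on either strand, to the letters searched and described after the sequences.
Ugt2b1, chr5:86926454-86926753 (minus strand): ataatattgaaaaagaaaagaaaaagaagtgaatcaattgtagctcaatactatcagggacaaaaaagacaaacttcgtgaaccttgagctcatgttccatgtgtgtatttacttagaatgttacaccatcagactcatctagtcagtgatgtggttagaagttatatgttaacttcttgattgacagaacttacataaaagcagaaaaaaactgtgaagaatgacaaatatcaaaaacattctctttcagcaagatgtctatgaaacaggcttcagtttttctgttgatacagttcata
Sult2a8, its first annotated start, chr7:14446538-14446837 (minus strand): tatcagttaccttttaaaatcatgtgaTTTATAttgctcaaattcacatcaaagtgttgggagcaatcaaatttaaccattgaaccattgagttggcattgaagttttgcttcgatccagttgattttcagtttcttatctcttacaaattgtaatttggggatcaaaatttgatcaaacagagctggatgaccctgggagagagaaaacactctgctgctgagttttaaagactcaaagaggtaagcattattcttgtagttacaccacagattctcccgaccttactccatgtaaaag
Sult2a8, its second annotated start, chr7:14438502-14438801 (minus strand): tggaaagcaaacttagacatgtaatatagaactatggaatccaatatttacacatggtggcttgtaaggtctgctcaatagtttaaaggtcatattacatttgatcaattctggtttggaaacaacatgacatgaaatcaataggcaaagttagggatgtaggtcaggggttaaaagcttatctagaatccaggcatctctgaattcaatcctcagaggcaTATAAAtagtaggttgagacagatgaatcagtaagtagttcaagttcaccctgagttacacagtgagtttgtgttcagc
Gstm3, chr3:107969125-107969424 (minus strand): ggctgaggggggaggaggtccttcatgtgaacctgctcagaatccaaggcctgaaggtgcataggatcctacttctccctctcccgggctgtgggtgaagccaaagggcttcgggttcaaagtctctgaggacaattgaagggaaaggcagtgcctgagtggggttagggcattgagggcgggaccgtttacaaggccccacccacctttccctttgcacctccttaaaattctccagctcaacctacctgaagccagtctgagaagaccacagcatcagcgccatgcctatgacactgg
Sult1d1, chr5:87568957-87569256 (minus strand): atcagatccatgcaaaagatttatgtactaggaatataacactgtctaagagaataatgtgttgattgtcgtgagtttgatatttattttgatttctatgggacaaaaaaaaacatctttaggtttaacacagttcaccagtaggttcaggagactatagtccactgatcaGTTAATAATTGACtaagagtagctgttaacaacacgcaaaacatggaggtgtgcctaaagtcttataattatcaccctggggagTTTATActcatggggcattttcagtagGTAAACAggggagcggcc
Sult1e1, chr5:87591562-87591861 (minus strand): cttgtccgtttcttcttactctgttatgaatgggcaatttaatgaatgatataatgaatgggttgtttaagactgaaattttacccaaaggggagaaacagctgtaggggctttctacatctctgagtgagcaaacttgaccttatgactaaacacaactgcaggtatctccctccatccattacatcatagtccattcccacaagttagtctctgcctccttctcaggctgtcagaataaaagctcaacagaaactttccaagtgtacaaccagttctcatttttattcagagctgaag
Gstp1, chr19:4037863-4038162 (minus strand): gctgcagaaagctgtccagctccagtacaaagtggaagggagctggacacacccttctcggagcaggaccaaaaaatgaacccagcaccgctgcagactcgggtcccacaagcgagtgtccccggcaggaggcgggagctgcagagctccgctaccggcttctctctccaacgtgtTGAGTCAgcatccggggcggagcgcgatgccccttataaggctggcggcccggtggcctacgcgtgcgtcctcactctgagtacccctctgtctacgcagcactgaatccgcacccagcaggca
Gstp2, chr19:4042172-4042471 (minus strand): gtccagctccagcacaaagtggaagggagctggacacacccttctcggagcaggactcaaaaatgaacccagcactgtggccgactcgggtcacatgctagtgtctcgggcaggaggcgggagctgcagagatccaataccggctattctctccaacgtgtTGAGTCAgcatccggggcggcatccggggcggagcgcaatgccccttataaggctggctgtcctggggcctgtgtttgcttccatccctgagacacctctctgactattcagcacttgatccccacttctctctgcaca

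The letters searched, on both strands, were GTTAAT (the core bound by the hepatocyte factor HNF1), the longer HNF1 palindrome (the same core, any base, ATT, any base, AC), TGTTTAC (the core bound by FOXA factors), CAAAGTCCA (a direct repeat bound by HNF4), TGACNNNGC (the core of the antioxidant response element), TATAAA (the TATA box) and TGAGTCA (the AP-1 site). The last was added after the Gstp windows had been read. Positions count from 0 at the start base, with negative numbers upstream. The HNF1 core was found in 10 of the 41 members with a window and in 7.1% of 32851 windows of the same length over all genes. Here and below a member counts once if any of its windows holds the letters, and some members have several windows. The share over all genes is of single windows, so the figures are not like for like. Of the 13 members measurable in liver alone 12 have a window, and 3 of these held the core (Sult1d1, Ugt2a3 and Ugt3a1); so did 2 of 13 with a window among those measurable in fat and liver (Gsta3 and Sult1a1) and 5 of 15 among those measurable in no tissue. Of the windows shown only that of Sult1d1 held it. The palindrome was found in Sult1d1, from position -79 to -67, and in 0.0578% of all windows. The FOXA core was found in 4 members (Sult1d1, Ugt2b35, Ugt2b37 and Ugt2b38) and in 3.65% of all windows. The HNF4 repeat was found in Sult1b1 and in 0.475% of all windows, and the TATA letters in 10 members and in 13.6% of all windows. The antioxidant core was found in Gsta3 and Gstm7, against 12.4% of all windows. The AP-1 letters were found in 6 members and in 5.2% of all windows. Among these members were Gstp1, at -74 to -68, and Gstp2, at -89 to -83. The Gstp1 and Gstp2 windows carried 246 identical bases of 300 when aligned, 77.1% of aligned columns, whereas those of the neighbours Sult1d1 and Sult1e1 matched in 51.6% of aligned columns. None of the searched letters was in the Ugt2b1, Gstm3 or Sult1e1 window. A match is a description of the sequence and was not tested as a binding site.

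The 3 families differed in where they were measurable. Of the 48 genes, 29 passed the filter, a mean above 5.71 in at least 1 tissue, the level being the median of all single-gene probes. They were 15 of 17 glutathione transferases, 8 of 10 UDP-glycosyltransferases and 6 of 21 sulfotransferases. The 19 that did not pass were Gsto2, Gstt4, Sult1c1, Sult1c2, Sult2a1, Sult2a2, Sult2a3, Sult2a4, Sult2a5, Sult2a6, Sult2a7, Sult2b1, Sult3a1, Sult3a2, Sult4a1, Sult6b1, Sult6b2, Ugt2b37 and Ugt2b38. Nearest the threshold on the inside were Sult1b1 at 6.61 and Gstm6 at 6.72 in their highest tissue, and on the outside Gsto2 at 5.47 and Sult1c2 at 5.28.

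Among glutathione transferases, 13 of 17 were above 5.71 in all 3 tissues and 2, Gstm3 and Gstm6, in liver alone. All 8 measurable UDP-glycosyltransferase members were above it in liver alone: their levels on the 4 liver arrays ran from 8.23 to 11.92 and on the 8 fat arrays from 2.40 to 4.71. This does not hold for the whole family: the probes shared by Ugt1a genes, which are not members, lay between 5.80 and 6.77 on the 8 fat arrays. The sulfotransferases were mixed. Sult1a1, which sulfates simple phenols, and Sult5a1 were above the level in all 3 tissues, Sult1b1, Sult1d1 and Sult2a8 in liver alone, and Sult1e1, the oestrogen sulfotransferase, in both fat depots and not in liver. In the map of levels by array, the UDP-glycosyltransferase block shows the step from fat to liver most plainly and the Sult1e1 row runs the other way.

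**Figure D1:**
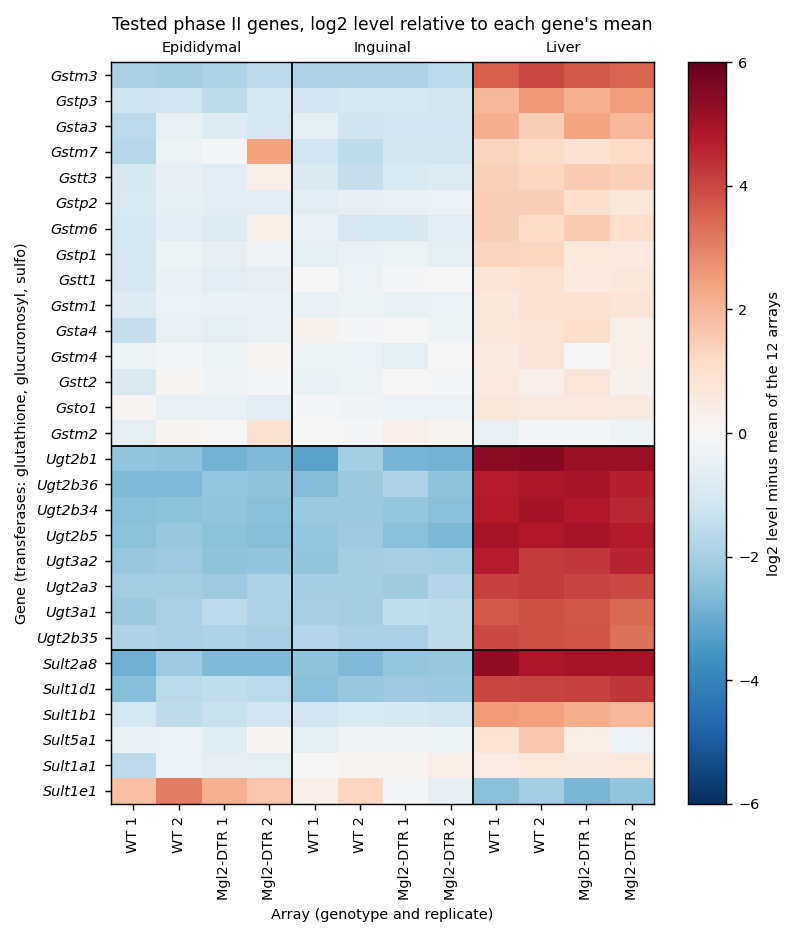
Heat map of the 29 measurable phase II genes (rows, grouped as glutathione transferases, UDP-glycosyltransferases and sulfotransferases) on the 12 arrays (columns, by tissue, genotype and replicate). Colour gives the log2 level minus the gene's mean over the 12 arrays. Sult1e1 is higher in fat, the 8 UDP-glycosyltransferases are higher on every liver array than on any fat array, and Gstm7 is high on 1 epididymal array, Mgl2-DTR replicate 2.

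Between tissues, nearly every measurable member was higher in liver. In wild-type mice 28 of 29 differed between liver and the mean of both fat depots at a limma adjusted p under 0.05, 27 higher in liver and 1 lower, where 57.1% of all 12710 genes tested differed, 23.2% higher and 34% lower. The median of the members was 2.41 on the log2 scale against -0.13 over all genes. A gene could pass the filter through liver alone, so this count describes the genes that passed and does not support a statement about all 48; with no filter 33 of the 48 differed, against 39.8% of all 22180 genes. A difference against a level under 5.71 is bounded by the floor of the array and understates what the RNA ratio may be. In whole tissue, fewer cells of a type and less RNA per cell cannot be told apart.

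The UDP-glycosyltransferase members differed most, by 5.78 to 7.93 on the log2 scale. Ugt2b1, which glucuronidates steroids and xenobiotics, was at 11.77 and 11.86 in wild-type liver, at 4.01 and 3.99 in epididymal fat and at 3.18 and 4.36 in inguinal fat. The liver arrays lay far above every fat array, and the difference was 7.93 (SE 0.26, limma adjusted p = 8.29e-09), or 244-fold on the measured scale. Ugt2b36 differed by 7.30 (SE 0.17), Ugt2b34 by 7.24 (SE 0.13), Ugt2b5 by 7.17 (SE 0.12) and Ugt3a2, which uses other UDP sugars than glucuronate, by 6.68 (SE 0.16). For all 8 genes the lowest liver array was above the highest fat array. Of the 8, Ugt2b34, Ugt2b1, Ugt2b35, Ugt2b36, Ugt2b5 and Ugt2a3 lie in 1 cluster on chromosome 5 in RefSeq, and Ugt3a1 and Ugt3a2 are neighbours on chromosome 15.

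The glutathione transferases were higher in liver by smaller amounts. Of the 15 measurable, 14 were called higher in wild-type liver, 11 of them at least 2-fold, as were 27% of all genes tested in either direction. Gstm3, a mu class gene, was at 9.23 and 9.63 in liver against 3.56 to 3.80 on the 4 wild-type fat arrays, a difference of 5.72 (SE 0.15, limma adjusted p = 2.48e-09). Gstp3 differed by 3.43 (SE 0.19), Gsta3, an alpha class gene, by 2.78 (SE 0.32), Gstm7 by 2.41 (SE 0.59) and Gstt3 by 2.29 (SE 0.27). At the other end of the family Gstt2 differed by 0.80 (SE 0.24, limma adjusted p = 0.0167). Gsto1, an omega class enzyme with thioltransferase activity, differed by 0.76 (SE 0.15, limma adjusted p = 0.0018). Both were called higher in liver, whereas Gstm2 was not called, at -0.10 (SE 0.27, limma adjusted p = 0.774, interval -0.69 to 0.50). Gstm2 and Gstm3 are immediate neighbours in the mu class cluster on chromosome 3. Their wild-type liver-to-fat differences, -0.10 and 5.72, had intervals that did not overlap (5.37 to 6.06 for Gstm3).

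The sulfotransferases held both directions. Sult2a8, a bile acid sulfotransferase of mouse liver, was at 11.10 and 10.63 in wild-type liver and between 2.92 and 3.64 in wild-type fat, a difference of 7.60 (SE 0.20, limma adjusted p = 2.32e-09). It was the only one of the 8 Sult2a genes among the members to be measurable in any tissue. Sult1d1, which acts on catecholamines, differed by 6.28 (SE 0.22), Sult1b1, which acts on thyroid hormones and phenols, by 3.66 (SE 0.16), Sult5a1 by 1.58 (SE 0.30) and Sult1a1 by 0.99 (SE 0.28, limma adjusted p = 0.0128). Sult1e1 was the exception. It was at 8.74 and 10.01 in wild-type epididymal fat, 7.25 and 8.21 in wild-type inguinal fat and 4.43 and 4.90 in wild-type liver. Every fat array lay above every liver array, and the difference was -3.89 (SE 0.37, limma adjusted p = 1.86e-05). Sult1b1, Sult1d1 and Sult1e1 are neighbours on chromosome 5, so the gene measurable in fat alone sits beside 2 that were measurable in liver alone.

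The same comparison in the Mgl2-DTR arrays, which share no array with the wild-type one, called 24 of 29 members, 23 higher in liver and 1 lower, where 53.6% of all genes were called, 19.9% higher. All 24 had also been called in wild-type mice, and all 29 had the same sign in both. With no filter, 26 of the 48 were called, against 32.8% of all genes. Sult1e1 differed by -3.35 (SE 0.37, limma adjusted p = 5.39e-05) and Ugt2b1 by 7.93 (SE 0.26). The 4 members called in wild-type mice alone were Sult5a1 at 0.27 (SE 0.30, limma adjusted p = 0.465), Gstm7 at 0.99 (SE 0.59, adjusted p = 0.183), Gstm4 at 0.40 (SE 0.18, adjusted p = 0.0934) and Gstt2 at 0.54 (SE 0.24, adjusted p = 0.0809). Whether a difference between tissues itself changed with genotype is the interaction given further on, and no member passed it. Gstp1 had a liver-to-fat difference of 1.91 (SE 0.19) in wild-type mice and 0.99 (SE 0.19) in Mgl2-DTR mice, and Gstp2 one of 2.12 (SE 0.13) and 1.34 (SE 0.13).

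**Figure D2:**
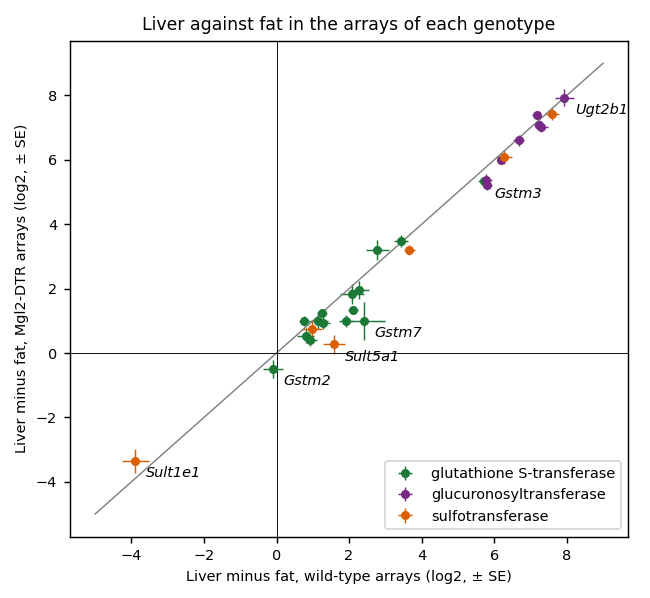
Liver minus fat for each of the 29 measurable members (log2, bars 1 SE), in the wild-type arrays (horizontal) and the Mgl2-DTR arrays (vertical); the diagonal marks equal differences and colour the family. The UDP-glycosyltransferases sit above 5 on both axes, Sult1e1 lies at -3.89 and -3.35, and Gstm7 and Sult5a1 lie below the diagonal.

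Between the fat depots few members were called, as was so over all genes. With 2 arrays per group this does not mean that the differences were small. In wild-type mice none of 29 was called between inguinal and epididymal fat, where 1.49% of all genes were called; 4 had an unadjusted limma p under 0.05, against 15.7% of all genes. Sult1e1 was lower in inguinal fat by -1.64 (SE 0.43, limma adjusted p = 0.119), Sult1a1 higher by 1.02 (SE 0.32, adjusted p = 0.184), Gsta4, which conjugates the lipid aldehyde 4-hydroxynonenal, higher by 0.99 (SE 0.30, adjusted p = 0.172) and Gstt1 higher by 0.53 (SE 0.21, adjusted p = 0.27). Both inguinal wild-type arrays were below both epididymal ones for Sult1e1. For Gsta4 and Sult1a1 the order was reversed, and epididymal wild-type replicate 1 was their lowest array, at 7.62 and 9.18.

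In Mgl2-DTR mice 1 of 29 was called between the depots, where 1.96% of all genes were called; 6 had an unadjusted limma p under 0.05, against 17.6% of all genes. The called gene was Sult1e1, at 6.81 and 6.43 in inguinal fat against 9.08 and 8.60 in epididymal fat. The groups did not overlap, and the difference was -2.21 (SE 0.43, limma adjusted p = 0.0377). The call is not firm: it was made in 13 of 24 alternative fits and lost without epididymal Mgl2-DTR replicate 1, epididymal Mgl2-DTR replicate 2, either inguinal Mgl2-DTR array or any liver array, when both muscle-rich inguinal arrays were left out, in a fit of the fat arrays alone, and with replicate number as a block. Gstm7 differed by -2.29 (SE 0.68, limma adjusted p = 0.138), with the array that carried duct markers as its highest. The sign of the depot difference was the same in both genotypes for 23 of 29 members, a count not made over all genes.

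**Figure D3:**
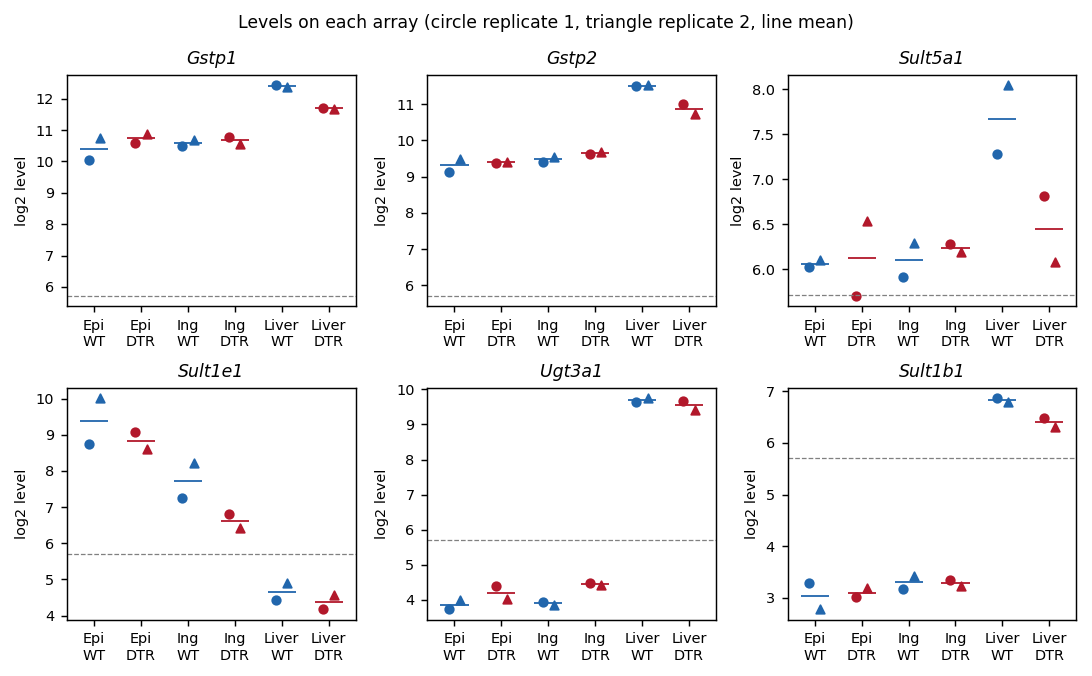
Log2 level of 6 members on every array, by tissue (epididymal, inguinal, liver) and genotype, with replicate 1 as a circle, replicate 2 as a triangle and the mean as a line; the dashed line marks 5.71, and each panel has its own axis. Sult1e1 steps down from epididymal to inguinal fat to liver, Gstp1 and Gstp2 are lower on both Mgl2-DTR liver arrays, and Ugt3a1 and Sult1b1 lie under the dashed line in fat.

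Between Mgl2-DTR and wild-type mice, all given toxin, no member passed the threshold. Without a toxin-free group, depletion of CD301b+ cells and the genotype itself cannot be told apart. The count was 0 of 29 in epididymal fat, inguinal fat and liver, where 0.0315%, 0.197% and 0.0708% of all genes were called. At an unadjusted limma p under 0.05 there were 2 members in epididymal fat, 3 in inguinal fat and 4 in liver, against 6.98%, 6.93% and 5.53% of all genes. Without epididymal wild-type replicate 2 the epididymal count was 11, against 19.8% of all genes, without epididymal Mgl2-DTR replicate 1 it was 4, against 9.59%, and without Mgl2-DTR replicate 2, either inguinal Mgl2-DTR array or any liver array it was 1, against 3.57% to 6.04%; without liver wild-type replicate 2 the liver count was 2, against 5.09%. The median change of the members was 0.11 in epididymal fat, 0.12 in inguinal fat and -0.11 in liver, against 0.0049, 0.10 and 0.011 over all genes. The genotype groups did not overlap for 7, 13 and 10 of the 29 members, against 29.5%, 46.9% and 34.4% of all genes. Data were also simulated for the liver comparison, with 200 of 12710 genes changed. The same fit recovered 69% of changes of size 1 and 90% of changes of size 2 on the log2 scale. It called 165 genes there, where the measured liver comparison called 9, so the adjusted threshold was more lenient in the simulation. These rates do not carry over to the measured arrays, where changes of size 1 or more can have gone unseen.

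**Figure D4:**
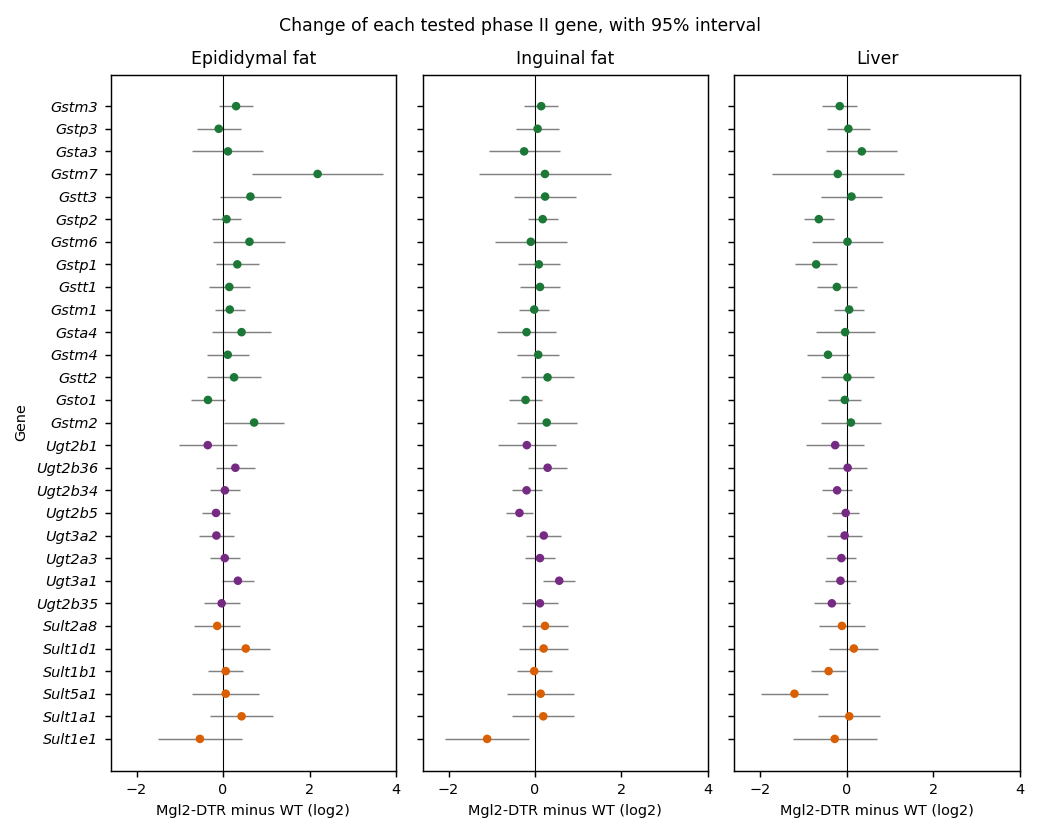
Mgl2-DTR minus wild-type change of each of the 29 measurable members (log2, bars 95% intervals) in epididymal fat, inguinal fat and liver; colour gives the family. Most intervals cross 0, and the points farthest from 0 are Gstm7 at 2.19 in epididymal fat, Sult1e1 at -1.11 in inguinal fat and Sult5a1 at -1.21 in liver, none of them past the threshold.

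In liver the lowest p-values belonged to 2 pi class glutathione transferases and 2 sulfotransferases, all lower in Mgl2-DTR mice. Gstp1 was at 12.43 and 12.38 in wild-type liver and at 11.71 and 11.69 in Mgl2-DTR liver. The groups were apart by more than either pair's own spread, and the change was -0.71 (SE 0.22, interval -1.20 to -0.22, limma adjusted p = 0.691). Gstp2 was at 11.50 and 11.53 against 10.99 and 10.73. It too was lower on both Mgl2-DTR arrays, by -0.65 (SE 0.15, interval -0.99 to -0.30, limma adjusted p = 0.387).

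The third gene of that cluster, Gstp3, did not share this order: it was at 8.95 and 9.55 in wild-type liver and at 9.10 and 9.46 in Mgl2-DTR liver, with overlapping groups and a change of 0.04 (SE 0.22, interval -0.47 to 0.54). In fat the Gstp1 and Gstp2 groups were close. Gstp1 changed by 0.33 (SE 0.22) in epididymal and 0.09 (SE 0.22) in inguinal fat, and Gstp2 by 0.08 (SE 0.15) and 0.18 (SE 0.15), none of them called. Gstp1 and Gstp2 are near-identical copies, and how far each probe reads the other gene's RNA could not be checked without the probe sequences.

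Sult5a1 was at 7.28 and 8.05 in wild-type liver and at 6.82 and 6.09 in Mgl2-DTR liver. The groups did not overlap, but both pairs were wide, and the change was -1.21 (SE 0.34, interval -1.98 to -0.44, limma adjusted p = 0.601). Sult1b1 was at 6.86 and 6.79 against 6.49 and 6.32, a change of -0.42 (SE 0.18, adjusted p = 0.885). Gstm4 had a change of -0.44 (SE 0.21) and Ugt2b35 one of -0.35 (SE 0.19). Of the 29 members, 10 had liver groups that were apart, against 34.4% of all genes. In 9 of the 29 the groups were apart and lower in Mgl2-DTR mice, against 15.2% of all genes. Beside these values, 8 macrophage markers averaged 9.03 and 8.88 in wild-type liver and 9.58 and 9.49 in Mgl2-DTR liver, and 4 Kupffer cell markers 8.50 and 8.15 against 9.22 and 9.15. None of the 12 was called, and their part in the member values was not tested. The 8 hepatocyte markers averaged 12.07 to 12.21 on all 4 liver arrays.

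In inguinal fat the lowest p belonged to Ugt3a1, at 3.94 and 3.86 in wild-type and 4.48 and 4.44 in Mgl2-DTR fat. The groups were apart, with a change of 0.56 (SE 0.16, limma adjusted p = 0.557), but all 4 levels lay under 5.71, where little of the signal may be the gene's own. Ugt2b5 at -0.36 (SE 0.14), Ugt2b36 at 0.29 (SE 0.20) and Ugt2b34 at -0.19 (SE 0.15) were in the same range of levels, from 2.40 to 4.71. Of the members measurable in fat, Sult1e1 had the lowest p. It was at 7.25 and 8.21 in wild-type and at 6.81 and 6.43 in Mgl2-DTR inguinal fat, both lower, with a change of -1.11 (SE 0.43, interval -2.08 to -0.13, limma adjusted p = 0.683). In epididymal fat, where its wild-type arrays differed by 1.27, the change was -0.54 (SE 0.43) and the groups overlapped. Gsto1 had a change of -0.22 (SE 0.17) in inguinal and -0.35 (SE 0.17) in epididymal fat. Beside these, 8 macrophage markers averaged 10.43 and 10.50 in wild-type inguinal fat and 8.53 and 9.12 in Mgl2-DTR; 3 of them, the complement genes C1qa, C1qb and C1qc, fell (C1qc by 2.03, SE 0.17, limma adjusted p = 0.00179). Their part in the member values was not tested.

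In epididymal fat the size of the largest change depended on single arrays. Gstm7, a mu class glutathione transferase, was at 5.87 and 7.25 in wild-type fat and at 7.51 and 9.99 in Mgl2-DTR fat. The value of 9.99 belongs to Mgl2-DTR replicate 2, and it exceeded all 7 other fat arrays by 2.48. The change was 2.19 (SE 0.68, limma adjusted p = 0.688). Without Mgl2-DTR replicate 2 it was 0.95, with the remaining Mgl2-DTR array still above both wild-type ones, and without wild-type replicate 1 as well it was 0.26. Without Mgl2-DTR replicate 1 it was 3.43, past the threshold (limma adjusted p = 0.00525), in a fit that called 1.96% of all genes. Gstm2 followed, at 8.35 and 9.05 against 8.96 and 9.88, a change of 0.72 (SE 0.31, adjusted p = 0.710). Gstt3 was at a mean of 6.76 ± 0.34 against 7.39 ± 0.74 (SD, n = 2 each), with 7.91 on Mgl2-DTR replicate 2 and 6.87 on replicate 1, a change of 0.63 (SE 0.31, adjusted p = 0.725). Without Mgl2-DTR replicate 2 alone the Gstm2 change was 0.26, the Gstt3 change 0.11 and the Gsto1 change -0.23, and every fit without 1 array kept their signs. Without wild-type replicate 1 and Mgl2-DTR replicate 2 together, which leaves 1 array against 1, they were -0.089, -0.13 and 0.011, each of the opposite sign. Sult1d1, at 0.52 (SE 0.25, adjusted p = 0.721), and Ugt3a1, at 0.34 (SE 0.16, adjusted p = 0.721), lay under 5.71 on every fat array; Sult1d1 was at 0.98 without wild-type replicate 2 (limma adjusted p = 0.0115), in a fit that called 6% of all genes.

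Epididymal Mgl2-DTR replicate 2 was also the array with epididymal duct markers. Adam7, a surface protein of the epididymal epithelium, was at 12.53 there and at most 3.88 on the other 7 fat arrays, and the lipocalins Lcn5 and Lcn8 were at 11.83 and 11.25. On that array 4 of the 29 measurable members exceeded all other fat arrays by more than 0.5, against 389 of 12710 genes (3.06%). All 4 were glutathione transferases: Gstm7 by 2.48, Gstt3 by 0.91, Gstm6 by 0.75 and Gstm2 by 0.64. Sult2b1, a cholesterol sulfotransferase that did not pass the filter, exceeded them by 0.65. The other epithelial markers, 7 genes, averaged 7.94 on that array and 5.28 to 6.09 on the other 7. Epididymal wild-type replicate 1 was the lowest epididymal array for 12 of the 16 members measurable in that fat, against 36.8% of the 11391 genes above 5.71 there. On that array 8 macrophage markers averaged 11.30, against 10.56, 9.96 and 9.69 on the other 3 epididymal arrays. The widest gaps between the 2 arrays of a group lay in epididymal fat for Gstm7 (2.48 in Mgl2-DTR and 1.38 in wild-type), Sult1e1 (1.27 in wild-type), Sult1a1 (1.23 in wild-type), Gstm6 (1.14 in Mgl2-DTR) and Gsta3 (1.11 in wild-type). Ugt2b1 in wild-type inguinal fat differed by 1.18, at levels under 5.71. What part these array differences have in the member values was not tested beyond the fits without them.

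**Figure D5:**
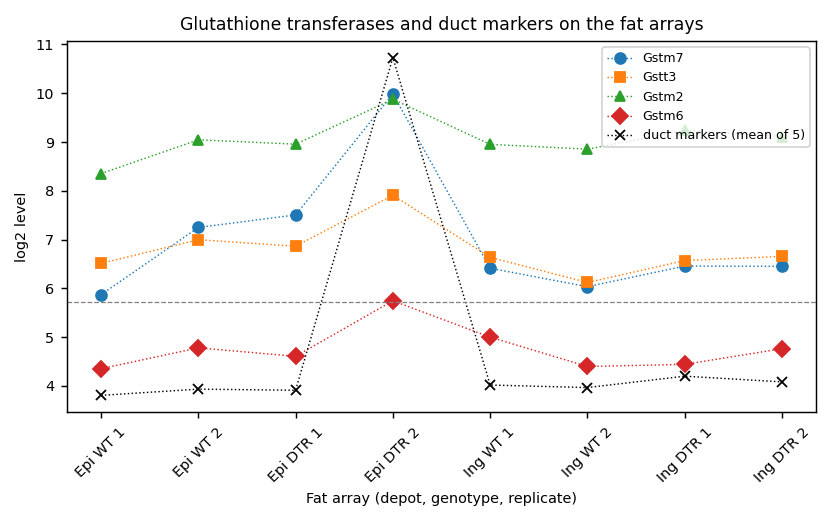
Log2 levels of Gstm7, Gstt3, Gstm2 and Gstm6 and the mean of 5 epididymal duct markers on the 8 fat arrays; dotted lines join the arrays only to guide the eye, and the dashed line marks 5.71. All 5 series have their highest value on epididymal Mgl2-DTR replicate 2, where the duct markers average 10.73.

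The genotype changes were also set against each other between tissues. For the change in liver minus the mean change in fat, 0 of 29 members were called, where 0.236% of all genes were; 4 members, all lower, had an unadjusted limma p under 0.05, against 7.94% of all genes and 4.16% lower. They were Gstp2 at -0.78 (SE 0.19, limma adjusted p = 0.268), Gstp1 at -0.92 (SE 0.27, adjusted p = 0.395), Sult5a1 at -1.31 (SE 0.42, adjusted p = 0.435) and Ugt3a1 at -0.60 (SE 0.20, adjusted p = 0.458). Gstp1 and Gstp2 passed the threshold when epididymal wild-type replicate 2 was left out, where 1.92% of all genes did, and in no other fit. For the change in inguinal minus that in epididymal fat, 0 of 29 were called and 0 had an unadjusted limma p under 0.05, against 0% and 2.86% of all genes; Gstm7 had the largest value, -1.96 (SE 0.96, limma adjusted p = 0.995).

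The genes that supply the reactions and the genes that control them were read from 9 lists. No gene was called in any of the 3 genotype comparisons among 12 tested NRF2 targets, 11 genes of cofactor supply, 15 other conjugating enzymes, 5 deconjugating enzymes, 13 receptors and regulators, 9 CAR and PXR targets and 9 efflux transporters. In liver the list medians lay between -0.15 and 0.085, against 0.011 over all genes. Nqo1, a quinone reductase and NRF2 target, had a liver change of 0.41 (SE 0.20, limma adjusted p = 0.957). Ugdh, which makes UDP-glucuronate, had one of -0.33 (SE 0.22), Papss1, which makes PAPS, one of 0.28 (SE 0.23) and Gss, glutathione synthetase, one of -0.19 (SE 0.16). Arsb, a lysosomal sulfatase, had one of -0.29 (SE 0.14, adjusted p = 0.934). Of the regulators, Cebpa was at -0.64 (SE 0.22, adjusted p = 0.758), Ahr, the dioxin receptor, at 0.40 (SE 0.15, adjusted p = 0.803) and Ppara at -0.43 (SE 0.21, adjusted p = 0.951). Gadd45b, a CAR-responsive and stress-responsive gene, was at 0.97 in liver (SE 0.15, adjusted p = 0.0863), 0.83 in inguinal fat (SE 0.15, adjusted p = 0.111) and -0.65 in epididymal fat (SE 0.15, adjusted p = 0.522).

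In fat the same lists gave the following values. Gclm, a subunit of the enzyme that limits glutathione synthesis, had an epididymal change of 0.41 (SE 0.16), and Gclc, the other subunit, an inguinal change of 0.57 (SE 0.21), with limma adjusted p of 0.710 and 0.664. Among the other conjugating enzymes Nat2, an N-acetyltransferase, was at -0.55 in epididymal fat (SE 0.20, adjusted p = 0.71), and Tst, the thiosulfate sulfurtransferase, at -0.66 in inguinal fat (SE 0.20, adjusted p = 0.591). Among the efflux pumps Abcb4, the phospholipid transporter, was at -1.26 in epididymal fat (SE 0.44, adjusted p = 0.71) and Abcc2, which exports glucuronide and glutathione conjugates, at 0.53 in inguinal fat (SE 0.24, adjusted p = 0.728).

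The liver genes that differ between the sexes, a group to which several phase II enzymes belong, were the lists with calls. These lists were chosen with earlier results of these data known, so their counts and medians describe the listed genes and test nothing. Of 10 tested genes known to be higher in males, 3 fell in Mgl2-DTR liver, where 0.0393% of all genes were called lower. All 10 had a change below 0, with a median of -1.22 against 0.011 over all genes. Hsd3b5, a steroid reductase, was at 9.55 and 9.59 in wild-type liver and at 6.46 and 4.12 in Mgl2-DTR liver, a change of -4.28 (SE 0.56, limma adjusted p = 0.036). Selenbp2, a selenium-binding protein, fell by 2.56 (SE 0.22, limma adjusted p = 0.0103) and Cyp4a12b, a fatty acid hydroxylase, by 1.72 (SE 0.22, adjusted p = 0.036). Of 10 listed genes known to be higher in females, 8 were measured and only 3 passed the filter, so most of that list was not tested. Of these 3 only Cyp2b9 was called, where 0.0315% of all genes were called higher. It rose by 3.41 (SE 0.33, limma adjusted p = 0.011), from 6.53 and 5.50 to 9.79 and 9.06. All samples are labelled male. No gene of either list was called in fat.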

How the data were processed

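RNA of 3 tissues from wild-type and Mgl2-DTR mice was hybridised to 12 Affymetrix arrays. The deposited values are on a log2 scale, normalized by the authors; per the submitters' processing notes limma was used, and no label or header states the normalization steps. The log2 scale was read from the range of the values. Of 41345 probes, 23521 have a single gene symbol in the platform annotation and 1814 several; the brightest single-symbol probe over the 12 arrays stood for each of 22180 genes. Genes with a mean above 5.71 in at least 1 tissue were tested, 12710 in all. Groups were fitted together with limma 3.58.1 in R 4.3.3 (1 mean per group, empirical Bayes without trend, 6 residual and 3.35 prior degrees of freedom), with Benjamini-Hochberg adjustment over all genes tested and a call at an adjusted p under 0.05. The fit was tested on simulated data. "Groups apart" means that every array of one group lay above every array of the other.

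The members and the gene lists were chosen with earlier results of these data known. Named were Mgl2, the 6 members with the lowest p in each genotype comparison, for each family the 5 called members with the largest difference between tissues in each direction, the 6 members with the widest gaps between replicates and, of each list, up to 4 called genes or the 3 with the lowest p. Members named outside this rule, and the marker genes named, were chosen after their values were seen. Alternatives were other filters, probe choice, quantile normalization, variance models, a replicate block, tissues fitted alone and leaving out arrays. Same-numbered wild-type and Mgl2-DTR arrays did not deviate together (correlation of deviations 0.053 in epididymal fat, -0.12 in inguinal fat and 0.088 in liver), so the numbers were not taken as pairs.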

Additional observations from a re-analysis of the deposited data

Results flagged for a closer look

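Gstp2 had changes of opposite sign in 2 tissues, with the genotype groups apart in each. Its change was 0.18 in inguinal fat (SE 0.15, interval -0.17 to 0.52, limma adjusted p = 0.826), against a median of 0.10 over all genes. In liver it was -0.65 (SE 0.15, limma adjusted p = 0.387). Groups apart and higher in inguinal fat were found for 36.5% of all genes, and apart and lower in liver for 15.2%. The liver change minus the mean change in fat was -0.78 (SE 0.19, limma adjusted p = 0.268) and did not pass the threshold.

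Ugt3a2 moved by -0.16 (SE 0.18) in epididymal fat and by 0.20 (SE 0.18) in inguinal fat, again without overlap of the groups. The groups did not overlap for 29.5% and 46.9% of all genes in these depots. The difference between these changes was 0.36 (SE 0.26, limma adjusted p = 0.995), and all 8 fat levels lay between 3.61 and 3.99, under the level of 5.71.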

How the results depend on the processing

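The counts of called members stayed within 1.5 times of the reported ones in 193 alternative values and left that range in 19, and the values of single named members kept their direction and their side of the threshold in 406, reversed in 3 and passed the threshold in 2 (Gstm7 and Sult1d1 in epididymal fat). Leaving out 1 array at a time gave 0 to 2 called members for the epididymal change (Sult1a1 and Sult1d1 without wild-type replicate 2, Gstm7 without Mgl2-DTR replicate 1; these fits called 6% and 1.96% of all genes), 0 for the inguinal and the liver change, 26 to 28 for liver against fat in wild-type and 22 to 25 in Mgl2-DTR mice, 0 to 3 for inguinal against epididymal fat in each genotype, 0 to 2 for the liver change minus the fat change (Gstp1 and Gstp2 without epididymal wild-type replicate 2, with 1.92% of all genes) and 0 for the inguinal minus the epididymal change. In the wild-type depot comparison Sult1e1 was called without epididymal wild-type replicate 1, with 1.44% of all genes, and Gsta4, Gstt1 and Sult1a1 without replicate 2, with 11.4%. In the Mgl2-DTR one Sult1a1 and Sult1d1 joined Sult1e1 without either epididymal wild-type array (4.24% of all genes), and Gstm7 and Gstt3 took its place without epididymal Mgl2-DTR replicate 1 (4.15%). At an unadjusted limma p under 0.05, leaving out 1 array gave 2 to 7 members for the wild-type depot comparison, 3 to 7 for the Mgl2-DTR one, 2 to 7 for the liver minus the fat change and 0 to 6 for the inguinal minus the epididymal change; apart from the second, the highest count came without epididymal wild-type replicate 2, with 25.3%, 14.8% and 12.3% of all genes. Of the alternatives chosen after seeing the data, leaving out epididymal wild-type replicate 1 and Mgl2-DTR replicate 2 together gave 1 call in the wild-type depot comparison, Sult1e1, and turned the epididymal change of Gstm2 to -0.089, of Gsto1 to 0.011 and of Gstt3 to -0.13. Leaving out both muscle-rich inguinal arrays gave 0 calls in the Mgl2-DTR depot comparison, as did fitting the fat arrays alone. In these, the cause was not tested, but fewer arrays leave fewer degrees of freedom.

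With replicate number as a block within each tissue there were 0 calls in the 3 genotype comparisons, 28 and 26 for liver against fat, and 1 in the Mgl2-DTR depot comparison, which was then Gstm7 in place of Sult1e1. The same-numbered inguinal arrays deviated in opposite directions (-0.12), and crossing their numbers in the block gave 2 calls there, Gstm7 and Sult1e1. Quantile normalization again moved the median inguinal change of all genes from 0.10 to 0.042. No member has a second single-symbol probe, so the next brightest probe was not run. Levels under 5.71 are limited by the signal over background.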

Other observations

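The array also holds 9 probes of these families that are annotated with several genes, 7 of them above 5.71 in some tissue; they were looked at after the other results were seen. In wild-type mice 6 of the 7 differed between liver and fat, and 6 in Mgl2-DTR mice. A probe shared by Ugt1a genes, the locus of bilirubin glucuronidation, was higher in wild-type liver by 3.21 (SE 0.40, limma adjusted p = 0.000106), and a probe shared by alpha class genes by 2.85 (SE 0.14, limma adjusted p = 1.86e-07). Another Ugt1a probe was higher there by 1.59 (SE 0.17, limma adjusted p = 3.34e-05). Both Ugt1a probes were above 5.71 on every fat array, between 5.80 and 6.77. A mu class probe was the only one of the 7 lower in liver, by -0.93 (SE 0.25, limma adjusted p = 0.0112). None of the 7 was called between genotypes in any tissue. In liver 2 had an unadjusted limma p under 0.05, both lower in Mgl2-DTR mice. One was shared by Gstp1 and Gstp2, members already described, and so adds no further gene, at -0.77 (SE 0.18, limma adjusted p = 0.4). The other was an alpha class probe at -0.49 (SE 0.22, limma adjusted p = 0.899).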
